A study of Rattus norvegicus with 12 samples.

Results

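The collagen genes described here were measured in the renal cortex of rats given cisplatin or water. They are the genes whose symbol has the form Col, a type number, a and a chain number, together with the cross-linking enzymes Loxl1 and Loxl2, the prolyl and lysyl hydroxylases P4ha1, P4ha2, Plod1 and Plod2, and the collagen chaperone Serpinh1. Symbols were looked up through the accession of each array probe, so that the rule picks members by name. Of 15645 genes named on the array, 28 belonged to the set: 21 of the 44 collagen symbols in the name table and 7 of the 8 further genes, Lox having no named probe here. By class these were 8 fibrillar chains, 2 basement membrane chains, 2 multiplexins, 2 network or anchoring chains, 1 beaded filament chain, 3 chains that attach to fibrils (FACIT), 2 transmembrane collagens, Col26a1 and the 7 enzymes and chaperone.

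The rats were male Sprague-Dawley (Crl:CD(SD)) animals, 5 weeks old at purchase, and were dosed for 4 weeks. Cisplatin is a platinum drug that damages DNA and is toxic to kidney tubules. In 1 experiment the rats received it through gavage, 3.75 mg/kg/day, and in the other through intravenous injection, 0.75 mg/kg/day, each against animals given water by the same route. Each of the 4 groups held 3 animals with 1 Agilent array each, 12 arrays in all, and the design text calls the 3 of a group biological replicates. The route, the dose and the experiment changed together and cannot be told apart. The intravenous dose is that on the label of each sample, while the treatment protocol common to all samples gives 3.75 mg/kg/day. Arrays lay on 3 slides. Slide 1 held the 3 gavage water arrays with gavage cisplatin replicate 1, slide 2 held gavage cisplatin replicates 2 and 3 with the 3 intravenous water arrays, and slide 3 held the 3 intravenous cisplatin arrays.

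Collagens are built from 3 chains wound into a triple helix. Fibrillar collagens, chiefly types I, III and V in the kidney, form the fibres of the interstitium and are laid down by fibroblasts in scarring. Type IV collagen forms the sheets of basement membranes: the chains encoded by Col4a1 and Col4a2 occur in all of them, while those encoded by Col4a3, Col4a4 and Col4a5 form the network of the glomerular filter. New chains are hydroxylated on proline and lysine and folded with the help of Serpinh1 in the endoplasmic reticulum, and are cross-linked by lysyl oxidases after secretion.

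Upstream sequences of 4 members are shown because these members moved together or in opposite directions: Col1a2 and Col18a1 rose in both experiments, and the basement membrane chains Col4a1 and Col4a4 went opposite ways. They are from RefSeq (GRCr8), read on the strand of the gene up to the base before its annotated start. Capitals mark CCAAT and GGGCGG, or their reverse complements. The Col1a2 window is chr4:33518307-33518556 (+ strand) and the Col18a1 window chr20:11473395-11473644 (+ strand). For Col4a1 only the 76 bases between its start and that of Col4a2, which is read the other way, are given (chr16:84885521-84885596, + strand). The Col4a4 window, chr9:91323578-91323827 (- strand), lies within the 412 bases that separate its start from that of Col4a3, the same head-to-head layout.
Col1a2: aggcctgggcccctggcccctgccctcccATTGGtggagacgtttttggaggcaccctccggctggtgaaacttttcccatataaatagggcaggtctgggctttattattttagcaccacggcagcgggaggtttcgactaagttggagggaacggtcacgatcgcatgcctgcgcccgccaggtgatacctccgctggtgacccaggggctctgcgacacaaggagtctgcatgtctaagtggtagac
Col18a1: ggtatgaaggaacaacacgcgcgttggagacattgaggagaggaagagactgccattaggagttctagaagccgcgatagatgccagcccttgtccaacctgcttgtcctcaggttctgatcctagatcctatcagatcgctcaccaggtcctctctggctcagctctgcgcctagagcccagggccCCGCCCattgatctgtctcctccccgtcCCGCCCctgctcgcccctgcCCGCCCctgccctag
Col4a1: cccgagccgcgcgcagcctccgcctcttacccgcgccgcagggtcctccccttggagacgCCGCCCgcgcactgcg
Col4a4: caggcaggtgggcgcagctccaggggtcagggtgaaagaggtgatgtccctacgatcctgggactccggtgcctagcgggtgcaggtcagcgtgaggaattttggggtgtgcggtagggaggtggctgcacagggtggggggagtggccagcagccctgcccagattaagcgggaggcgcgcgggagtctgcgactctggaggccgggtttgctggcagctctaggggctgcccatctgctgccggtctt

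Of the 28 members, 22 had such a window of 250 bases, with a GC content of 46.8% to 75.2%. GGGCGG, the core of a GC box, was found on either strand in 13 of the 22 (59.1%), against 32.4% of the 27457 windows of all genes in the table. Among the members that rose in both experiments it was found in 9 of 12. In Col18a1 all 3 matches lie in the reverse complement, CCGCCC, near the start. CCAAT was found in 4 of 22 members (18.2%), namely Col1a2, Col4a1, Col5a3 and Col11a1, against 34.3% of all windows. The match in Col1a2 begins 221 bases before the annotated start. TATAAA was found in 2 members, Col1a2 and Col13a1 (13.1% of all windows), and TGANTCA in 0 of 22 (6.36% of all windows). The windows of all genes include non-coding genes, matches of CCAAT and GGGCGG may overlap, and a match describes the letters only.

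Expression was read as the log2 processed signal of a probe minus the 75th percentile of its array, so that 0 is the level of a fairly bright probe and each unit is a factor of 2. The probe with the highest mean over the 12 arrays stood for a gene. Of the 28 members, 27 could be tested, because their probe was well above the local background on every array of 1 group or more. Col13a1, a transmembrane collagen, was well above background on 1 of 12 arrays and was not tested. The 75th percentile of the signal lay between 969.7 and 1054.8 on the water arrays and between 1387.4 and 1532.2 on the cisplatin arrays, and 0 probes were saturated.

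Most collagen genes rose with cisplatin by either route. In the gavage experiment 18 of the 27 members rose, 3 fell and 6 did not pass the test (limma, adjusted p under 0.05 over all 32215 features tested), where 29.5% of all features rose and 30.2% fell (59.6% in either direction). In the intravenous experiment 18 rose, 5 fell and 4 did not pass, against 26.1% and 32.6% of all features (58.7% in either direction). The median change of the tested members was 1.45 (log2) by gavage and 1.18 intravenously, and that of all features 0.00 and -0.07. The groups did not overlap for 22 members in each experiment, as for 67.2% and 66.1% of all features. The same 17 genes rose in both experiments, by 0.81 to 4.12 by gavage and 0.66 to 3.33 intravenously. Col4a4, Col9a2 and Col11a2 fell in both.

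**Figure D1:**
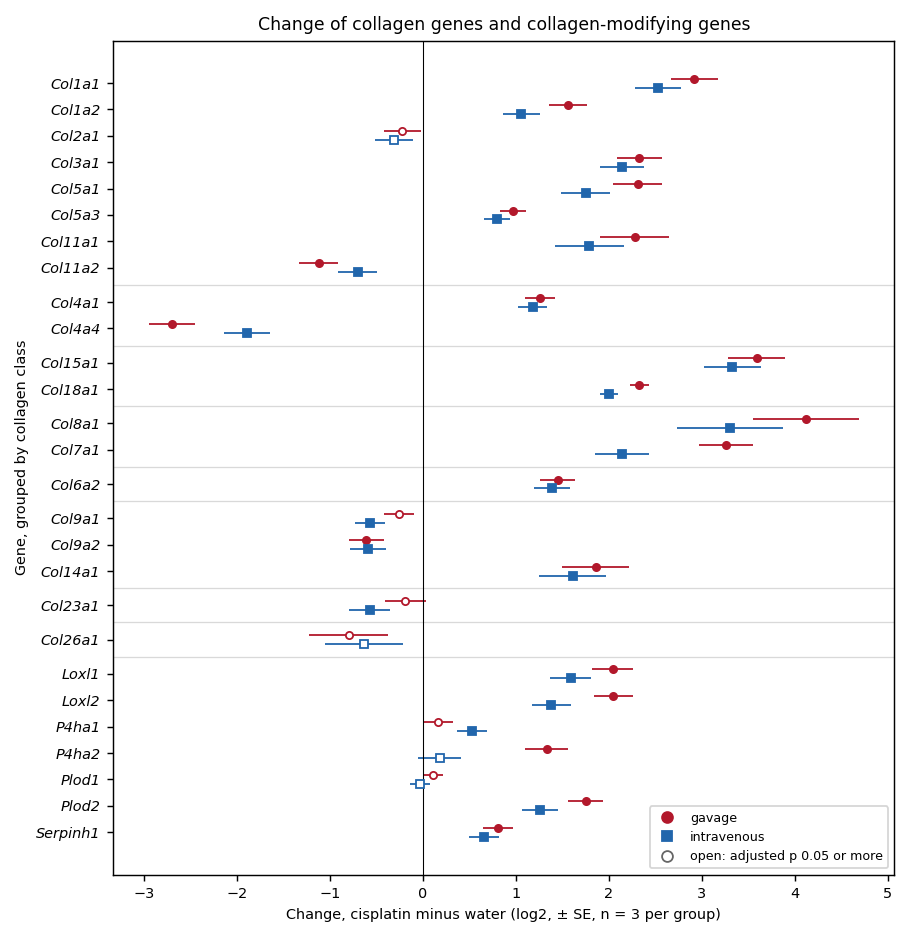
Change of each of the 27 tested genes (x axis, log2 cisplatin minus water, with its standard error, 3 arrays per group) by class from fibrillar chains at the top to enzymes at the bottom (y axis), gavage as circles and intravenous injection as squares, open where the adjusted p was 0.05 or more. Most points lie right of 0, farthest for Col8a1 by gavage (4.12) and for Col15a1 intravenously (3.33, with Col8a1 at 3.30). Col4a4 lies far to the left at -2.70 and -1.89.

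Among the fibrillar chains 6 of 8 rose in each experiment, Col11a2 fell and Col2a1 did not pass, with a median change of 1.92 by gavage and 1.40 intravenously. The shares of all features were 29.5% risen and 30.2% fallen by gavage, and 26.1% and 32.6% intravenously. Col1a1 and Col1a2 encode the 2 chains of type I collagen, the main collagen of scars. For Col1a1 the gavage water arrays read 1.23, 0.68 and 0.90 and the gavage cisplatin arrays 3.83, 3.81 and 3.95. Intravenously it read 1.20, 1.15 and 0.54 with water and 3.84, 3.71 and 2.92 with cisplatin. Every cisplatin array lay above every water array in both experiments. The rise was 2.92 ± 0.25 (SE; 7.59-fold, adjusted p = 8.8e-06) by gavage and 2.53 ± 0.25 (5.76-fold, adjusted p = 3.43e-05) intravenously.

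For Col1a2 the levels were 3.96, 3.71 and 3.58 with water by gavage and 5.32, 5.13 and 5.49 with cisplatin. The intravenous arrays gave 3.93, 3.94 and 3.53 with water and 5.10, 5.07 and 4.42 with cisplatin. Again no cisplatin array reached down to a water array. The rise, 1.56 ± 0.20 (adjusted p = 8.95e-05) and 1.06 ± 0.20 (adjusted p = 0.00123), was smaller than that of Col1a1 in both experiments as read by these probes, a difference that was not tested. The other Col1a2 probe rose by 1.81 and 1.33, and the other probes of Col1a1 rose by 1.93 to 2.58 and by 1.83 to 2.13.

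Col3a1 encodes type III collagen, which forms fine fibres together with type I. It read 1.82, 1.67 and 1.62 with water by gavage and 3.98, 3.82 and 4.31 with cisplatin, and 2.12, 1.99 and 1.44 against 4.22, 4.27 and 3.49 intravenously. The groups stood apart in both, with rises of 2.33 ± 0.24 (adjusted p = 2.14e-05) and 2.14 ± 0.24 (adjusted p = 5.51e-05). Type V collagen sits inside type I fibres and sets their width. Its chain gene Col5a1 read -0.43, -0.48 and -0.73 against 1.78, 1.46 and 2.06 by gavage, and -0.33, -0.32 and -0.65 against 1.80, 1.44 and 0.70 intravenously. Intravenous cisplatin replicate 3 was its lowest treated array and still above all water arrays. The rises were 2.31 ± 0.26 (adjusted p = 3.64e-05) and 1.75 ± 0.26 (adjusted p = 0.000286).

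Col5a3, another type V chain gene, read -1.93, -1.80 and -1.92 against -0.93, -0.89 and -0.92 by gavage, and -1.82, -1.88 and -1.92 against -1.11, -0.72 and -1.40 intravenously. The groups did not overlap, and the intravenous cisplatin arrays were the most spread (SD 0.34, against 0.02 to 0.07 in the other groups). Its rise was 0.97 ± 0.14 (adjusted p = 0.000225) and 0.80 ± 0.14 (adjusted p = 0.000916) by the brighter probe, while a dimmer probe rose by 2.83 and 2.58, so the size of its change depended on the probe.

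Type XI collagen is best known from cartilage, and its chain genes went opposite ways. Col11a1 read -2.31, -2.09 and -2.90 against -0.10, -0.64 and 0.28 by gavage, and -2.51, -2.06 and -3.12 against -0.10, -1.06 and -1.16 intravenously. It rose by 2.28 ± 0.37 (adjusted p = 0.000439) and 1.79 ± 0.37 (adjusted p = 0.00223). Col11a2 read -0.81, -0.56 and -0.93 against -2.0, -1.73 and -1.94 by gavage, and -0.74, -0.48 and -1.06 against -1.95, -1.17 and -1.28 intravenously. All cisplatin arrays of Col11a2 lay below all water arrays of their experiment, the closest pair being -1.06 and -1.17. It fell by 1.12 on the log2 scale (SE 0.21, adjusted p = 0.00119) and by 0.70 (SE 0.21, adjusted p = 0.0168). A dimmer Col11a2 probe changed by -0.52 and -0.43 and did not pass (adjusted p = 0.0735 and 0.127), and without intravenous water replicate 2 the intravenous change was -0.56 (adjusted p = 0.0662). Of the cartilage and bone markers Acan, Bglap and Ibsp, Acan and Ibsp were not well above background on any array and Bglap changed by 0.53 and 0.35 (adjusted p = 0.072 and 0.226).

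Col2a1, the chain of cartilage type II collagen, was dim throughout. It read -3.63, -3.92 and -4.06 against -3.96, -3.99 and -4.33 by gavage, and -3.40, -3.77 and -3.98 against -3.83, -4.38 and -3.86 intravenously. The groups overlapped, and its changes of -0.22 and -0.31 did not pass (adjusted p = 0.36 and 0.206). A second Col2a1 probe, nearly as bright, fell by 0.62 intravenously (adjusted p = 0.00821) and did not pass by gavage (adjusted p = 0.998).

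**Figure D2:**
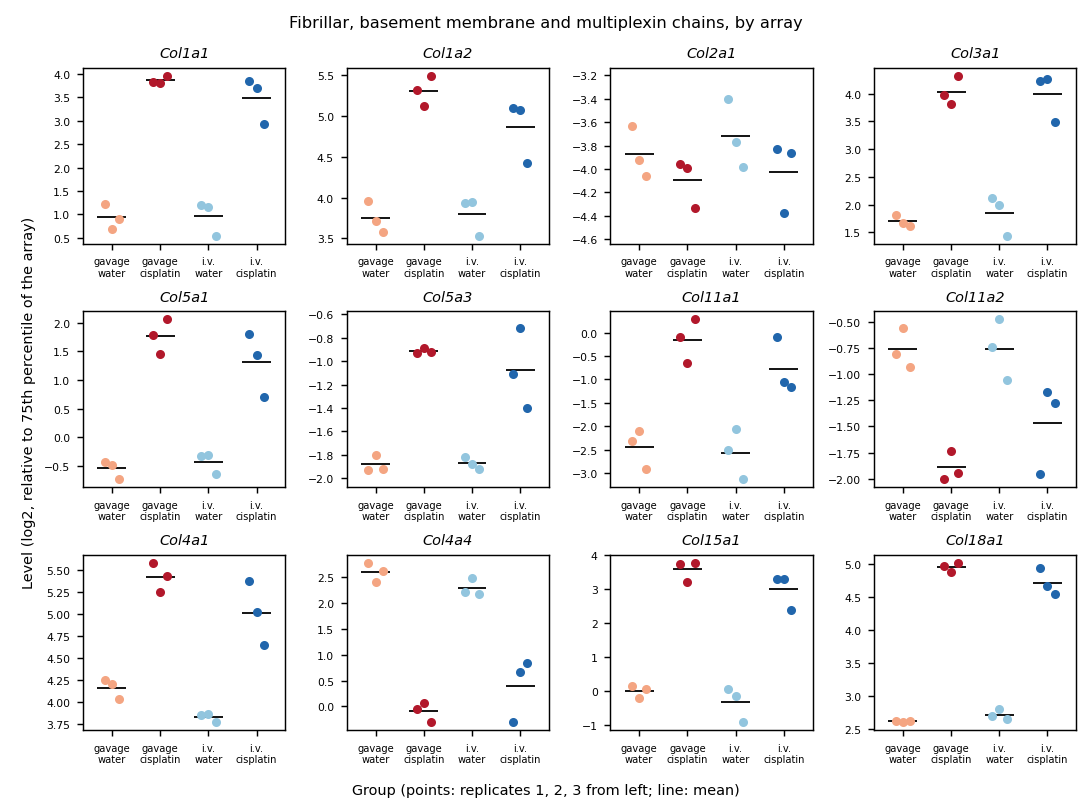
Levels (y axis, log2 relative to the 75th percentile of the array, with its own range in each panel) of the 8 fibrillar, 2 basement membrane and 2 multiplexin chains on each array by group (x axis), with points for replicates 1 to 3 and a line for the mean. Col1a1, Col15a1 and Col18a1 show wide gaps between water and cisplatin, Col4a4 shows one in the other direction, and the Col2a1 groups overlap.

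The basement membrane chains split, and their median change, -0.72 by gavage and -0.36 intravenously, is the midpoint of 2 opposite changes. Only 2 of the 6 type IV chains in the name table had a named probe. This class holds type IV chains only. The multiplexins Col15a1 and Col18a1, also of basement membranes, were counted apart and rose in both experiments. Col4a1, a chain of the network found in all basement membranes, read 4.25, 4.20 and 4.03 against 5.58, 5.24 and 5.43 by gavage. Intravenously it read 3.85, 3.86 and 3.77 against 5.37, 5.02 and 4.64. The gap between the groups was wide in both experiments. It rose by 1.26 ± 0.16 (2.39-fold, adjusted p = 0.000112) and 1.18 ± 0.16 (2.27-fold, adjusted p = 0.000215).

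Col4a4, a chain of the glomerular network, fell further than any other member in both experiments. It read 2.78, 2.41 and 2.61 with water by gavage and -0.05, 0.06 and -0.30 with cisplatin. With the intravenous route it read 2.21, 2.49 and 2.18 with water and -0.29, 0.66 and 0.83 with cisplatin. Intravenous cisplatin replicate 1 was as low as the gavage cisplatin arrays, and the other 2 stood between them and the water arrays. It fell by 2.70 (SE 0.25, 6.48-fold, adjusted p = 1.38e-05) and by 1.89 (SE 0.25, 3.71-fold, adjusted p = 0.000171), and its other probe by 2.76 and 1.76. Of 6 podocyte markers, 5 fell by gavage and 4 intravenously (30.2% and 32.6% of all features), with a median change of -0.76 and -0.52. Their summed level relative to the 75th percentile was 35.2 to 39.3 in gavage water and 21.0 to 24.3 in gavage cisplatin, and 29.5 to 33.1 and 23.6 to 25.2 intravenously. Of 7 proximal tubule markers, 7 fell by gavage and 6 intravenously, against the same shares of all features, with a median change of -3.25 and -1.73. On intravenous cisplatin replicates 1 to 3 the proximal tubule sum was 113, 323 and 375, and the podocyte sum 23.7, 23.6 and 25.2. In whole cortex fewer cells of a type and less RNA per cell cannot be told apart. The part of either cell type in the fall of Col4a4 was not tested.

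The probes of Col4a1 did not all move one way. Of its 4 probes, the brightest, the second and the dimmest rose (by 1.26, 1.82 and 1.18 by gavage and 1.18, 1.45 and 0.90 intravenously). The third by brightness fell by 0.73 (SE 0.18, adjusted p = 0.00496) and 0.80 (SE 0.18, adjusted p = 0.00347). On that probe the gavage arrays read 4.03, 3.27 and 3.57 with water and 2.77, 2.92 and 2.99 with cisplatin, again without overlap. Of the 21 members with at least 2 tested probes, 18 had a single call over all their probes by gavage and 16 intravenously, and Col4a1 alone had probes called in opposite directions. Which transcript each probe reads was not tested.

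Both multiplexins, basement membrane collagens that carry sugar chains, rose in both experiments. Col15a1 lies at the border of basement membranes and the fibrous stroma. It read 0.15, -0.22 and 0.04 against 3.75, 3.21 and 3.78 by gavage, and 0.05, -0.14 and -0.92 against 3.28, 3.30 and 2.39 intravenously. It rose by 3.59 ± 0.31 (12.1-fold, adjusted p = 7.54e-06) and 3.33 ± 0.31 (10.1-fold, adjusted p = 1.98e-05), and its groups stood far apart. Col18a1, whose end fragment is endostatin, had the smallest spread of these chains, at 2.62, 2.61 and 2.63 against 4.96, 4.87 and 5.02 by gavage. Intravenously it read 2.70, 2.80 and 2.65 against 4.94, 4.67 and 4.54. Its rise was 2.33 ± 0.10 (5.02-fold) and 2.00 ± 0.10 (4.0-fold), with the lowest adjusted p of the members that rose in both (2.56e-07 and 8.88e-07).

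The network and anchoring chains held the largest rise of all members by gavage, that of Col8a1, while intravenously Col15a1 rose slightly more (3.33). Col8a1, a short-chain collagen of vessel walls and remodelling matrix, read -4.55, -4.36 and -4.44 with water by gavage and -0.36, -0.77 and 0.15 with cisplatin. Intravenously it read -4.62, -4.29 and -4.76 with water and 0.23, -1.32 and -2.68 with cisplatin. The intravenous cisplatin arrays were widely spread, yet all lay above the water arrays. The rise was 4.12 ± 0.57 (17.4-fold, adjusted p = 0.00015) and 3.30 ± 0.57 (9.83-fold, adjusted p = 0.000751). The intravenous value rested partly on single arrays, being 2.56 without intravenous cisplatin replicate 1 and 4.01 without replicate 3. Col7a1, the chain of the fibrils that anchor basement membranes to the stroma, read -3.39, -3.24 and -3.70 against -0.04, -0.70 and 0.17 by gavage. Its intravenous levels were -3.59, -2.97 and -2.93 against -0.74, -0.76 and -1.57. It rose by 3.26 ± 0.29 (adjusted p = 1.04e-05) and 2.14 ± 0.29 (adjusted p = 0.000192), with no overlap.

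Among the remaining chains Col6a2 and Col14a1 rose in both experiments. Col6a2, a chain of the beaded filaments around cells, read 2.37, 2.54 and 2.25 against 3.72, 3.75 and 4.05 by gavage and 2.49, 2.40 and 2.04 against 3.84, 3.97 and 3.30 intravenously, rising by 1.45 ± 0.19 (adjusted p = 0.000101) and 1.39 ± 0.19 (adjusted p = 0.000175). Col14a1, a FACIT chain that binds type I fibres, read -2.0, -1.91 and -1.77 against -0.35, -0.21 and 0.47 by gavage and -1.17, -1.44 and -1.82 against 0.82, 0.31 and -0.71 intravenously. Its groups did not overlap, and it rose by 1.86 ± 0.36 (adjusted p = 0.00119) and 1.61 ± 0.36 (adjusted p = 0.00316).

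The type IX chains, FACIT collagens of cartilage, were low. Col9a2 read -1.92, -2.0 and -2.39 against -2.96, -2.45 and -2.73 by gavage, and -2.33, -2.18 and -2.44 against -2.95, -3.22 and -2.56 intravenously. The nearest arrays of its gavage groups, -2.39 and -2.45, almost touched. It fell by 0.61 (SE 0.19, adjusted p = 0.0193) and 0.59 (SE 0.19, adjusted p = 0.0229), and the call was lost when any of several single arrays was left out, as given under the processing alternatives. The other Col9a2 probe fell by 0.55 by gavage (adjusted p = 0.0367) and did not pass intravenously (-0.42, adjusted p = 0.0963). For Col9a1 the change by the brightest probe was -0.26 by gavage (adjusted p = 0.19) and -0.57 intravenously (adjusted p = 0.0134). Its 4 probes differed, as was seen once their values were known. The second by brightness changed by -0.02 in both experiments, while the dimmer probes fell by 1.71 and 2.40 by gavage and 1.62 and 2.45 intravenously. The third by brightness was well above background on all 12 arrays and passed the test in both experiments (limma adjusted p = 3.52e-05 and 7.33e-05). The dimmest probe was well above background on 8 of 12 arrays only. Its water arrays read between -4.53 and -3.04 and its cisplatin arrays between -6.87 and -5.26. It was thus in the test because of the water groups, where it was high, and the size of its fall is uncertain.

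The transmembrane collagen Col23a1 was near background, with 8 of 12 arrays well above it, and entered the test through the gavage cisplatin group alone. It read -5.31, -5.82 and -5.03 against -5.67, -5.51 and -5.55 by gavage, and -5.07, -5.17 and -5.64 against -6.14, -5.59 and -5.85 intravenously. The groups overlapped in both experiments. Its change was -0.19 by gavage (adjusted p = 0.483) and -0.57 intravenously (adjusted p = 0.0464). That intravenous call was lost under 15 of 23 alternatives, 8 of them with a single array left out, and with spike-in scaling the change was 0.01. Col26a1 changed by -0.80 and -0.63 without passing (adjusted p = 0.123 and 0.219).

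**Figure D3:**
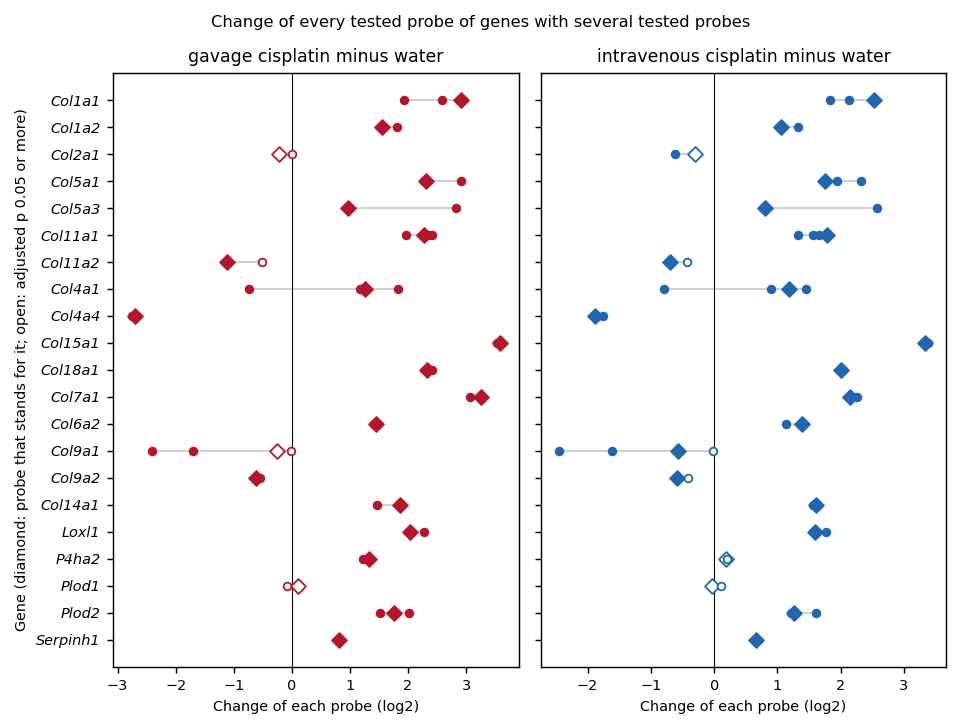
Change of every tested probe (x axis, log2 cisplatin minus water) for the 21 genes with at least 2 tested probes (y axis), gavage on the left and intravenous on the right, with a diamond for the probe that stands for the gene and open marks for an adjusted p of 0.05 or more. Probes of most genes lie close together, while Col4a1 has probes on both sides of 0, and those of Col9a1 and Col5a3 are spread widely.

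Of the 7 enzymes and chaperone, 5 rose in each experiment and none fell, with a median change of 1.33 by gavage and 0.66 intravenously. Over all features 29.5% rose and 30.2% fell by gavage, and 26.1% and 32.6% intravenously. The cross-linking enzymes rose most. Loxl1 read 2.51, 2.54 and 2.28 against 4.43, 4.24 and 4.79 by gavage and 2.55, 2.48 and 2.23 against 4.46, 4.04 and 3.53 intravenously, rising by 2.04 ± 0.22 (adjusted p = 3.25e-05) and 1.59 ± 0.22 (adjusted p = 0.000216). Loxl2, which cross-links type IV as well as fibrillar collagen, read -0.61, -0.42 and -0.92 against 1.46, 1.08 and 1.66 by gavage and -0.39, -0.51 and -0.83 against 1.06, 0.93 and 0.43 intravenously. Its water arrays were all below 0 and its cisplatin arrays all above. It rose by 2.05 ± 0.21 (adjusted p = 2.54e-05) and 1.38 ± 0.21 (adjusted p = 0.000397).

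The lysyl hydroxylases differed from each other. Plod2, which hydroxylates the ends of collagen chains and so sets the kind of cross-link, read -0.24, -0.29 and -0.29 against 1.5, 1.14 and 1.78 by gavage and -0.28, -0.28 and -0.20 against 1.30, 1.16 and 0.57 intravenously. It rose by 1.75 ± 0.19 (adjusted p = 3.54e-05) and 1.26 ± 0.19 (adjusted p = 0.000361). Plod1, which acts on the helical part, read 1.93, 1.70 and 2.04 against 1.98, 1.98 and 2.05 by gavage and 2.02, 2.09 and 1.77 against 2.00, 1.92 and 1.89 intravenously. Its groups overlapped, and its changes of 0.11 ± 0.11 and -0.03 ± 0.11 did not pass (adjusted p = 0.407 and 0.857).

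P4ha1 and P4ha2 encode catalytic subunits of prolyl hydroxylase, which stabilises the helix, and each passed in 1 experiment. P4ha1 read -0.96, -0.40 and -0.60 against -0.37, -0.39 and -0.73 by gavage and -0.66, -0.74 and -1.0 against -0.23, -0.21 and -0.38 intravenously. Its groups overlapped by gavage (0.16 ± 0.16, adjusted p = 0.413) and were separate intravenously, where it rose by 0.53 ± 0.16 (adjusted p = 0.016). Without intravenous water replicate 3 that rise was 0.43 (adjusted p = 0.0613). P4ha2 read 1.51, 1.69 and 2.34 against 3.10, 3.05 and 3.39 by gavage and 2.27, 2.67 and 2.67 against 3.08, 2.61 and 2.46 intravenously. It rose by 1.33 ± 0.23 by gavage (adjusted p = 0.000685) and changed by 0.18 ± 0.23 intravenously (adjusted p = 0.523). The water groups themselves stood 0.69 ± 0.23 apart, higher in the intravenous experiment (unadjusted p = 0.0141, limma adjusted p = 0.225).

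Serpinh1, also known as HSP47, is the chaperone that holds the triple helix in the endoplasmic reticulum. It read 3.33, 3.53 and 3.62 against 4.35, 4.13 and 4.43 by gavage and 3.62, 3.64 and 3.26 against 4.37, 4.26 and 3.87 intravenously. The groups did not overlap. The rise was 0.81 ± 0.16 (1.76-fold, adjusted p = 0.00127) and 0.66 ± 0.16 (1.58-fold, adjusted p = 0.00484), the smallest among the 17 genes that rose in both.

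**Figure D4:**
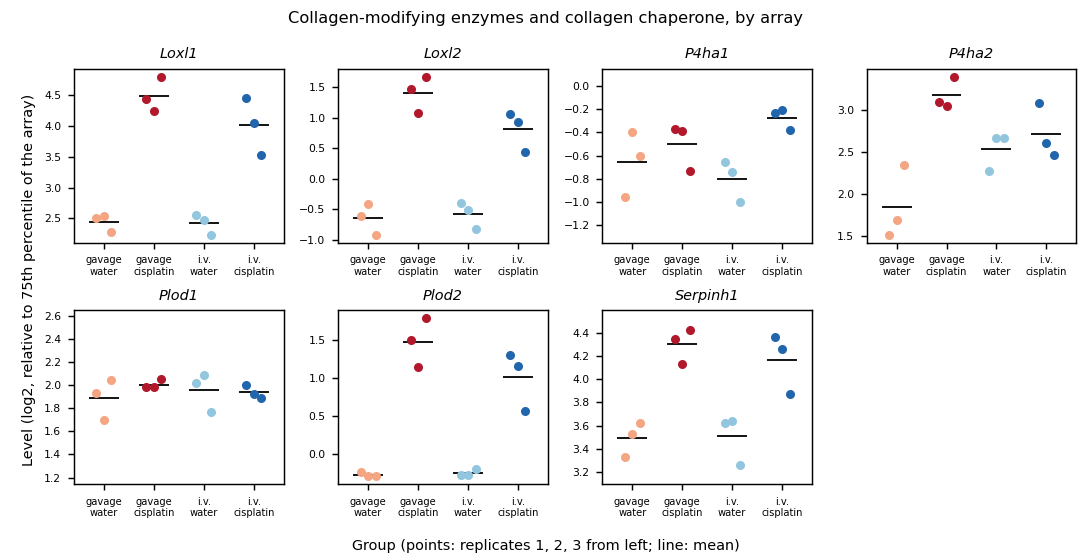
Levels (y axis, log2 relative to the 75th percentile of the array, with its own range in each panel) of the 7 collagen-modifying enzymes and chaperone on each array by group (x axis), points for replicates 1 to 3 and a line for the mean. Loxl1, Loxl2, Plod2 and Serpinh1 are higher with cisplatin in both experiments, P4ha2 by gavage and P4ha1 by injection, and the Plod1 groups overlap.

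Beyond the set, 46 other genes of collagen folding, processing, cross-linking, binding and breakdown were listed, of which 38 were on the array and 35 were tested. By gavage 19 rose and 5 fell, and intravenously 20 rose and 8 fell, with a median change of 0.75 and 0.76. Of all features 29.5% rose and 30.2% fell by gavage, and 26.1% and 32.6% intravenously. These counts include Tll2, Lum and Loxl4 as risers, Lair1 as a faller and Itga10 as an intravenous faller. Each passed the filter only through groups where it was high, so its place in the counts partly follows from the filter. Tll2 and Lum were not well above background on any water array. Both entered the test through the gavage cisplatin group, where they were high. Their rises are bounds, at least 1.46-fold and 1.04-fold for Tll2 and at least 1.85-fold and 1.43-fold for Lum. The rises with the smallest p included genes of folding, processing, cross-linking and breakdown. P3h4, a partner of the hydroxylases in the endoplasmic reticulum, rose by 1.93 and 1.81, and the folding helper Fkbp10 by 2.48 and 2.07. Pcolce, which speeds the removal of the procollagen end piece, rose by 1.69 and 1.51. The lysyl oxidase family member Loxl4 rose by 4.69 and 4.43, but only 1 of 3 gavage water and 2 of 3 intravenous water arrays were well above background. It entered the test through the cisplatin groups, and the size of its rise is uncertain. Collagen-degrading enzymes rose as well, Mmp2 by 3.39 and 3.03 and Mmp14, which activates it, by 2.39 and 1.82. The limma adjusted p of P3h4, Fkbp10, Pcolce, Mmp2 and Mmp14 lay at or below 7.47e-05 in both experiments.

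Among the listed genes that fell was P3h2, a prolyl hydroxylase that acts on type IV collagen, by 1.57 (adjusted p = 1.01e-05) and 0.94 (adjusted p = 0.00031). Pepd, which splits the dipeptides left from collagen breakdown, fell by 2.52 (adjusted p = 1.73e-05) and 1.47 (adjusted p = 0.000662). Ddr2, a receptor for fibrillar collagen, fell by 0.60 (adjusted p = 0.00719) and 0.55 (adjusted p = 0.012), though with spike-in scaling it changed by 0.09 and 0.03. Lair1, a collagen receptor of leukocytes, was not well above background on the cisplatin arrays. It entered the test through the water groups, where it was high. As a bound it was at least 2.11-fold lower by gavage and at least 1.85-fold lower intravenously. Its limma adjusted p (0.00184 and 0.044) rests on cisplatin readings not well above background. P4hb, the other subunit of prolyl hydroxylase, fell intravenously by 0.39 (adjusted p = 0.00203) and changed by -0.14 by gavage (adjusted p = 0.16), though with spike-in scaling it changed by 0.18 and 0.55. The integrin chain Itga10 was clearly above background throughout the intravenous water group alone, through which it entered the test, and on 1 of 3 intravenous cisplatin arrays. Its changes were -0.92 intravenously (adjusted p = 0.00656) and -0.29 by gavage (adjusted p = 0.31), and with the mean of all its probes -0.14 (adjusted p = 0.517) and 0.73.

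All 17 genes that rose in both experiments rose more by gavage, but no member passed the test of the difference between the experiments. The difference, intravenous effect minus gavage effect, ran from -1.15 for P4ha2 to 0.80 for Col4a4. Of all features 1.19% passed that test, 0.161% upward and 1.02% downward. The lowest adjusted p among the members was 0.109, for P4ha2 (limma), and 3 members had an unadjusted p under 0.05: P4ha2 (0.0056), Col7a1 (-1.12 ± 0.41, 0.0218) and Col4a4 (0.049). The same held for 19.4% of all features. Without intravenous cisplatin replicate 1 the difference passed for Col4a4 (1.15, adjusted p = 0.0242) and P4ha2 (-1.33, adjusted p = 0.0439). Between the water groups 0 members and 0 of all features passed (limma), and P4ha2 alone had an unadjusted p under 0.05, as had 14.1% of all features.

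The rise differed from array to array within the cisplatin groups. Over the 17 genes the median level minus the mean of the water arrays was 2.11, 1.80 and 2.37 on gavage cisplatin replicates 1 to 3, and 2.22, 1.66 and 1.11 on the intravenous ones. Intravenous cisplatin replicate 3 was the lowest of its group for all 17 genes, and gavage cisplatin replicate 2 for 14 of 17. Without intravenous cisplatin replicate 3, 18 members still rose and 4 fell in that experiment. The summed level of 7 proximal tubule markers, relative to the 75th percentile, was 113, 323 and 375 on the intravenous cisplatin arrays against 888 to 1090 on the water arrays of both experiments. Among the gavage cisplatin arrays it was highest on replicate 2 (151) and lowest on replicate 3 (70.0). In each experiment the array with the lowest median rise was thus the one with the most proximal tubule signal. Water arrays differed as well, intravenous water replicate 3 being the lowest of its group for 15 of the 17 genes. The third replicates of the intravenous groups also had the fewest probes well above background (66.1% with water and 66.2% with cisplatin, against 68.0% to 73.9% on the other arrays) and the most spots marked uneven (40 and 17). The part of these in the spread was not tested.

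**Figure D5:**
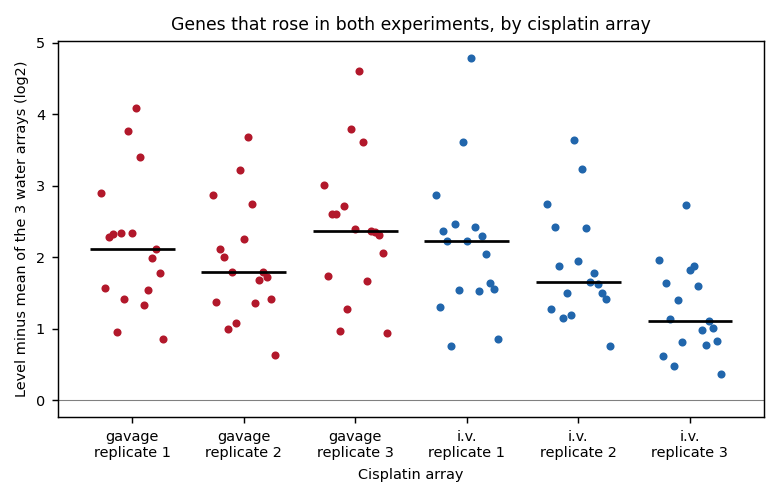
Level minus the mean of the 3 water arrays of the experiment (y axis, log2) of each of the 17 genes that rose in both experiments, for each of the 6 cisplatin arrays (x axis), with a line at the median. The medians run from 1.80 to 2.37 by gavage and from 1.11 on intravenous replicate 3 to 2.22 on replicate 1, and all points lie above 0.

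Markers of cells that make collagen were read on the same arrays. Of 8 fibroblast and pericyte markers on the array, 7 were tested and 7 rose in both experiments, against 29.5% and 26.1% of all features. Fap and Postn were not well above background on any water array, so that Fap entered the test through its cisplatin groups, and Postn was not tested. Without Fap 6 of 6 rose, with a median change of 1.55 and 1.48. The summed level of the 8 markers was 12.9 to 19.0 in gavage water and 47.9 to 75.1 in gavage cisplatin, and 11.5 to 16 and 37.9 to 68.3 intravenously. Most of it was Dcn, which is also one of the listed pathway genes. Without Dcn the sums were 6.82 to 8.01 and 13.7 to 16.9 by gavage, and 6.15 to 8.0 and 11.5 to 12.8 intravenously. Of 5 myofibroblast and smooth muscle markers, 3 rose by gavage and 2 intravenously, against 29.5% and 26.1% of all features. Tagln rose by 3.34 and 2.22 and Des by 1.5 and 1.14. Acta2 rose by gavage (1.8) and did not pass intravenously (0.47, limma adjusted p = 0.146). Cnn1 (0.62 and 0.76) and Myh11 (-0.08 and -0.19) did not pass in either. The sum of the 5 went from 3.14 to 4.24 with gavage water to 15.4 to 22.6 with gavage cisplatin. Intravenously it went from 3.36 to 3.94 with water to 15.9, 10.6 and 6.04 on cisplatin replicates 1 to 3. Most of the cisplatin sums was Tagln. Of 6 macrophage markers 6 rose by gavage and 5 intravenously, against 29.5% and 26.1% of all features. Cd163 among them was not well above background on any water array and entered the test through its cisplatin groups. Without Cd163, 5 of 5 rose by gavage and 4 of 5 intravenously, with a median change of 1.71 and 1.42. Of 6 endothelial markers 3 and 2 fell and none rose, the falls being near the share of all features (30.2% and 32.6%). As a check of the labelled tissue, each of the 7 proximal tubule markers was well above background in every group on at least 1 array. Of 3 genes listed as medulla and papilla markers, Slc12a1 fell in both experiments (by 2.56 and 2.26). Upk1b rose by gavage (2.31, limma adjusted p = 0.0277, with overlapping groups). Aqp2, which made up most of their sum of 54.4 to 172 over all arrays, changed by 0.49 and -0.23 without passing. Slc12a1 and Aqp2 were bright in the gavage and intravenous water groups (means 4.70 and 4.95, 6.56 and 6.31). Whether they came from cortical or medullary tubules was not tested. The part of any of these cell types in the collagen changes was not tested.

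The slides and the scaling bear on these values as follows. With the slide as a block the gavage change rests on slide 1 alone, with 1 cisplatin array against 3. The spread then comes from the other arrays, and the lone array has no replicate on its slide. On slide 1 the change was 2.89 for Col1a1, 1.42 for Col4a1 and -2.65 for Col4a4. In that fit 18 members rose and 4 fell, against 23.3% and 26.2% of all features. In the intravenous experiment water and cisplatin lay on different slides, which cannot be told apart from the treatment. When arrays were scaled to the spike-in controls, the median of all features moved to 0.69 by gavage and 0.50 intravenously, and 20 members rose and 1, Col4a4, fell in each experiment. The share of risers among the members called went from 85.7% to 95.2% by gavage and from 78.3% to 95.2% intravenously. Over all features the same share went from 49.4% to 87.2% by gavage and from 44.5% to 86.0% intravenously. On that scale Col4a4 fell by 2.01 and 1.32, Col11a2 changed by -0.44 and -0.13 without passing, and Col9a2 by 0.08 and -0.02.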

How the data were processed

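Total RNA was labelled with Cy3 and hybridised to 12 one-colour Agilent arrays. The submitters' processing notes name Agilent Feature Extraction 10.7, and the scanner files give 10.7.1.1. The processed intensity that was deposited has, per the file headers, its background subtracted and no scaling between arrays. The value table that the authors deposited holds the ratio of that intensity to the 75th percentile of its array (column medians 0.109 to 0.121); its direction and scale were found by matching 61537 probes, and the sources used here do not state how it was made.

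Of 61537 probes, 28206 matched 1 symbol through RefSeq accessions (GRCr8, names only), 33331 none and 0 several. The members had 65 probes, 57 of them tested. Changes are differences of log2 intensity minus the 75th percentile, without control spots and spots marked uneven. The brightest probe stood for a gene, and 32215 of 45433 features were well above background on all arrays of a group. The 4 group means were fitted with limma 3.58.1 under R 4.3.3 (residual degrees of freedom 8, prior 2.09), two-sided, with Benjamini-Hochberg adjustment. The fit was tested on simulated data. Where a dim group was below background on all arrays, a fold is a bound: the brighter mean against, per array, the dim probe's signal or the lowest signal among probes well above background, whichever was higher. Marker sums are linear. Motifs were sought by script.

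Values are given for every fibrillar and basement membrane chain, multiplexin and enzyme, for the 6 other members with the largest change past the test, and for the 6 listed pathway genes with the smallest p in each direction. The members and lists were chosen with earlier results of these data known. Alternatives were quantile, spike-in and normexp processing (offset 50, on the median signal, as no mean signal was used), no dim filter, the mean of all probes, slide and replicate blocks, array weights, the deposited table, 6 arrays alone, uneven spots kept, and each array left out. The fit of each probe on its own was added after seeing the data. The number of arrays limits the precision.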

Additional observations from a re-analysis of the deposited data

How the results depend on the processing

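Over 24 alternatives and 54 member changes, 1216 of 1269 values kept their direction and their side of the threshold, 29 lost the call, 11 gained one and 13 changed sign. All 17 genes that rose in both experiments rose under every alternative fitted in each. The number of members that fell moved more. By gavage, where 3 fell, it was 1 with spike-in scaling, 5 with normexp, 5 with the mean of all probes and 2 to 3 with 1 array left out. Intravenously, where 5 fell, it was 1 with spike-in scaling, 3 with the 6 arrays alone, and 2 to 6 with 1 array left out (2 without water replicate 1 or 2, 3 without cisplatin replicate 1). The replicate block gave 3, Col9a2 and Col23a1 losing the call, and left the other counts of members as they were. Replicate numbers did not pair the animals (correlations of deviations -0.111 to 0.063). The difference between experiments gave 0 to 1 member in each direction with 1 array left out. Listed pathway genes that fell numbered 3 and 1 with spike-in scaling.

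The fibrillar median became 2.61 and 1.98 with spike-in scaling (1.76 to 2.05 and 1.20 to 1.63 with 1 array left out). The basement membrane median by gavage was -0.56 with quantile normalization, -0.03 with spike-in scaling, -0.92 with the mean of all probes and -0.62 with the slide as a block, and intravenously 0.22 with spike-in scaling and -0.57 with the mean of all probes. Spike-in scaling turned the sign of Col23a1 (0.50 and 0.01), Col2a1 (0.47 and 0.27), Col9a1 (0.42 and 0.01), Ddr2 (0.09 and 0.03), P4hb (0.55 and 0.18), Col9a2 by gavage (0.08), Itga10 by gavage (0.40) and Plod1 intravenously (0.55). Plod1 intravenously was also above 0 with quantile normalization (0.08), normexp (0.13), the mean of all probes (0.04) and with 1 array left out (-0.12 to 0.04; 0.01 without water replicate 1), P4hb by gavage with quantile normalization (0.15), and Itga10 by gavage with the mean of all probes (0.73). Normexp moved the median of all features to -0.13 in both experiments. Col9a2 lost its call without gavage water replicate 1 or 2 or gavage cisplatin replicate 1 (adjusted p 0.0607 to 0.0719), and intravenously without water replicate 1 or 2 or cisplatin replicate 1 or 2 (0.0522 to 0.0861). Col23a1 lost it under most alternatives. The cause of these shifts was not tested. The slide block could not be fitted to the intravenous effect.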
